A study of Mus musculus with 12 samples.

Results

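The genes described here encode the proteins of the cytosolic ribosome in mouse ileum tumours. They were taken by name from the probe annotation of the array: symbols beginning with Rpl or Rps and a digit, together with Rplp0, Rplp1, Rplp2 and Rpsa, without the Rps6k kinases and without names of pseudogene style. That rule found 83 probes for 64 genes. A probe was kept when its detection p-value was below 0.05 on at least 4 of the 12 arrays, which left 70 probes for 57 genes among the 10967 genes tested. Of these 57 genes, 24 encode proteins of the small (40S) subunit, 25 proteins of the large (60S) subunit and 2 proteins of the stalk. Another 5 are paralogs of a ribosomal protein gene, among them Rps4y2, which RefSeq lists as a transcribed pseudogene. The remaining gene, Rps19bp1, met the name rule but encodes a nucleolar partner of RPS19, not a ribosomal protein.

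Total RNA came from ileum tumours of FVB/N mice aged 3 to 4 months and was hybridised to Illumina bead arrays, 1 array per tumour sample. The control group was labelled FVBN/APCmin (arrays 1 to 6), and the other group was labelled iPGC-1β/APCmin (arrays 7 to 12). Both carry the APCmin allele, an Apc mutation that cuts the protein short and leads to intestinal adenomas, and the second name stands for added intestinal PGC-1β, a coactivator of mitochondrial genes; its construct and promoter are not described in the labels. Levels are log2 intensities after background correction and quantile normalization, and differences are iPGC-1β/APCmin minus FVBN/APCmin.

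The ribosome joins amino acids into protein, and each of its proteins is needed in a fixed ratio to the others, so their genes are usually expressed together at high levels. Their mRNAs begin with a 5′ terminal oligopyrimidine (TOP) tract, a C followed by a run of C and U, through which the growth regulator mTORC1 and the RNA-binding protein LARP1 control their translation. In intestinal tumours, loss of Apc raises Wnt signalling and the transcription factor MYC, which is known to promote ribosome production.

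The annotated transcription starts were searched for such a tract, which was found near the start in some of the genes matched. RefSeq (GRCm38.p6) start windows were matched for 46 of the 57 genes, and a C followed by at least 4 bases that are each C or T, read on the strand of the gene, began within 5 bases of the start in 22 of them (47.8%). The same holds for 21.2% of the 27025 genes in the table. In 7 of the 46 genes (15.2%) the tract began exactly at the annotated start, against 3.01% of all genes. These 7 are printed because they place the TOP tract at the first base of the mRNA. Each line holds 15 bases before the start and the first 15 bases of the transcript, with the tract in capitals as far as the window shows it.
Rps6: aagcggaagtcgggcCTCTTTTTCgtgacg
Rps10: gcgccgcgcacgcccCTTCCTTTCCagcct
Rps15a: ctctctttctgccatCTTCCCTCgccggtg
Rps21: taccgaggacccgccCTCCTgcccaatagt
Rpl28: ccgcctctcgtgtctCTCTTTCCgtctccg
Rpl35: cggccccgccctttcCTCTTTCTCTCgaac
Rpl38: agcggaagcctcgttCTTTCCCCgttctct
The windows lie at chr4:86857353-86857382 (Rps6, minus strand), chr17:27635230-27635259 (Rps10, minus), chr7:118116133-118116162 (Rps15a, minus), chr2:180257364-180257393 (Rps21, plus), chr7:4792950-4792979 (Rpl28, plus), chr2:39005117-39005146 (Rpl35, minus) and chr11:114668565-114668594 (Rpl38, plus). A match is a description of these letters, and annotated starts may lie some bases from the start used in the tumours.

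Across all arrays, between 12858 and 14445 of 25697 probes were detected, and median raw intensity ran from 139.3 to 170.5. Epithelial identity of the tissue was visible in all tumours, since 10 of the 11 intestinal epithelium markers on the array were detected on every array. The probe for Ppargc1b, the gene of PGC-1β, did not show the genotype: its mean log2 level was 8.41 ± 0.65 for the controls and 7.86 ± 0.44 for the tumours labelled iPGC-1β/APCmin (SD, n = 6 each; limma adjusted p = 0.296). Directions below therefore follow the labels. Array 6 (FVBN/APCmin) and array 7 (iPGC-1β/APCmin) stood apart from their groups in lymphocyte genes. The mean centred log2 level of these genes was -0.89 on array 6, against 1.32 to 1.67 on arrays 1 to 5, and 1.88 on array 7, against -2.10 to -1.15 on arrays 8 to 12. Separate animals are not stated, so p-values measure only the spread between these samples, which may be technical.

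Ribosomal protein genes were among the brightest on the arrays. Their median log2 level was 12.93, against 7.76 over all genes tested, and 36 of the 57 lay in the brightest 5% of genes. The highest mean log2 levels belonged to Rpl23 (15.16), Rplp1 (15.06) and Rpl41 (14.88). Rpl23 encodes a protein of the large subunit, Rplp1 an acidic protein of the stalk that recruits translation factors, and Rpl41 the smallest ribosomal peptide. The lowest mean levels were those of Rpsa (5.16), the small subunit protein also known as the laminin receptor precursor, Rps4y2 (6.52) and Rpl21 (6.62). Levels of different probes are not comparable as amounts of mRNA, because each probe binds with its own efficiency. Of the 57 genes, 55 were detected on all 12 arrays.

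The comparison of genotypes asked whether tumours labelled iPGC-1β/APCmin differed in ribosomal protein mRNA. Only 1 of the 57 genes, Rps4y2, passed the threshold of a limma adjusted p below 0.05 over all 10967 genes, and it was higher in iPGC-1β/APCmin. Among all genes 3.45% passed, 2.22% higher and 1.23% lower. Of the other 56 genes, each measured by its brightest kept probe, none differed by as much as 0.5 on the log2 scale in either direction. Their smallest adjusted p in limma was 0.300. At an unadjusted p below 0.05 in limma, Rps4y2 was again the single member, while 23.3% of all genes reached it. For no member did all 6 arrays of a group lie beyond all 6 of the other, which 2.82% of all genes did.

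The differences were spread on both sides of 0. By sign alone 34 members were lower in iPGC-1β/APCmin and 23 higher, with a median log2 difference of -0.06 beside -0.01 over all genes; with a shift to a common 75th percentile in place of quantile normalization 39 were higher and the median was 0.12. Small subunit genes had a median difference of -0.20, with 17 of 24 lower, and large subunit genes -0.06, with 14 of 25 lower. None of these 49 genes passed the test, and the difference between the subunits was not tested. The data limit what could be seen: the median standard error (SE) was 0.31 for members against 0.24 for all genes, and the 95% intervals of the 56 genes that did not pass reached as low as -1.21 (Rpl12) and as high as 1.16 (Rps27a).

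**Figure D1:**
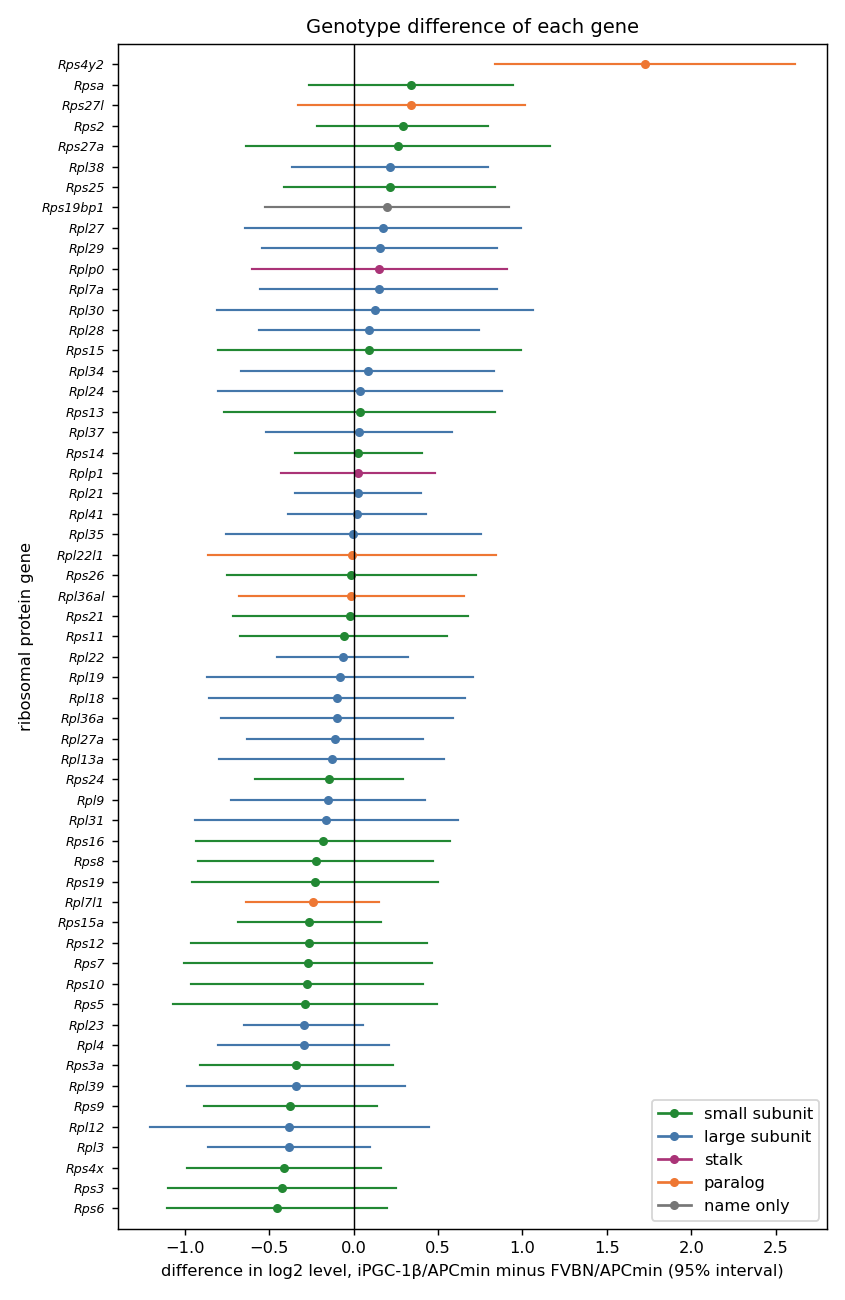
Difference in log2 level between the genotypes for each of the 57 genes (points) with its 95% interval from limma (lines), n = 6 arrays per group, coloured by class. All intervals except that of Rps4y2, at 1.73, include 0.

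The most negative differences belonged to core genes of both subunits. Rps6, whose protein is the substrate of the S6 kinases downstream of mTORC1, had a lowest, median and highest log2 level of 12.58, 13.45 and 13.67 in FVBN/APCmin and of 11.57, 13.10 and 13.58 in iPGC-1β/APCmin. Its groups overlapped, with array 8 far below all other arrays, and the difference was -0.45 (SE 0.30, limma adjusted p = 0.394). Rps3, a protein at the entry of the mRNA channel, ran from 12.88 over a median of 13.44 to 14.10 in FVBN/APCmin and from 11.77 over 13.04 to 13.99 in iPGC-1β/APCmin, a difference of -0.42 (SE 0.31). Its second kept probe, measured separately, differed by -0.62 (SE 0.34, limma adjusted p = 0.299 over all kept probes). Both probes of Rps3 were lowest on array 8 and highest on array 2.

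Next in order came Rps4x, the X-linked small subunit protein (-0.41), Rpl3, a large subunit protein that reaches towards the catalytic centre (-0.38), Rpl12 at the base of the stalk (-0.38), Rps9 of the small subunit (-0.37), Rpl39 in the wall of the peptide tunnel (-0.34) and Rps3a of the small subunit (-0.34; Rps3a1 in RefSeq). For these 6 genes the SE of the log2 difference lay between 0.22 and 0.38, and none passed. Rpl12 illustrates the spread: its lowest, median and highest log2 levels were 12.39, 13.33 and 13.91 in the controls and 11.13, 13.06 and 13.86 in iPGC-1β/APCmin. Array 8 was the low end of its iPGC-1β/APCmin range and array 6 the low end of the other.

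On the positive side, apart from Rps4y2, the largest differences belonged to Rpsa (0.34), Rps27l (0.34), Rps2 (0.29), Rps27a (0.26), Rpl38 (0.22), Rps25 (0.21) and Rps19bp1 (0.20), none of which passed. The difference of Rpsa, the member with the lowest mean level, was 0.11 without background correction and 0.11 in the authors' normalized table. Rps27a encodes a small subunit protein that is made as a fusion with ubiquitin. Its log2 level ran from 9.18 over a median of 9.97 to 10.46 in FVBN/APCmin and from 8.53 over 10.62 to 11.31 in iPGC-1β/APCmin. Both the lowest and the highest of the 12 values were therefore in iPGC-1β/APCmin. Rps2, a protein near the mRNA entry, ran from 13.64 over 13.89 to 14.36 in FVBN/APCmin and from 13.61 over 14.37 to 14.74 in iPGC-1β/APCmin. Rpl38, which in mouse embryos is needed for the translation of Hox mRNAs, ran from 13.80 over 13.87 to 14.19 and from 13.23 over 14.35 to 14.78. Of its iPGC-1β/APCmin arrays, 4 lay above the mean of the controls, and arrays 7 and 8 lay below every control. The second kept probe of Rpl38, measured separately, differed by 0.72 on the log2 scale (SE 0.57, limma adjusted p = 0.487 over all kept probes).

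The stalk proteins contact elongation factors, and neither of their genes tested passed the threshold. Levels of FVBN/APCmin are given first. Rplp1 was at 15.04 ± 0.24 and 15.07 ± 0.44 (log2, SD, n = 6 each), a difference of 0.03 with a 95% interval from -0.43 to 0.48. Rplp0, the scaffold of the stalk, was at 8.43 ± 0.26 and 8.59 ± 0.91, a difference of 0.15 with an interval from -0.60 to 0.91. The second kept probe of Rplp0 differed by 0.35 (SE 0.25, limma adjusted p = 0.442 over all kept probes). Rplp2 was not among the genes tested, since its probe was detected on 0 arrays.

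Rps4y2 was the exception among the members. RefSeq lists it as Rps4l on chromosome 6, with the biotype of a transcribed pseudogene, although its name did not mark it as one. Binding of its probe to transcripts of Rps4x or other copies was not tested. Its log2 level on arrays 1 to 6 was 4.92, 6.20, 5.50, 6.14, 5.96 and 5.21, and on arrays 7 to 12 it was 7.74, 8.12, 7.08, 8.66, 5.88 and 6.80. Every iPGC-1β/APCmin array except array 11 was above all FVBN/APCmin arrays. The gene rose by 1.73 (SE 0.41, 95% interval 0.84 to 2.61, limma adjusted p = 0.0390), from 5.66 ± 0.53 to 7.38 ± 1.00 (SD, n = 6 each).

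The signal of Rps4y2 was dim. Raw intensity was 135.9 to 206.3 on the control arrays and 186 to 439.4 on the others, where medians over all probes ran from 139.3 to 170.5, and 11 of 12 arrays detected it. Its call was lost without background correction (0.81, limma adjusted p = 0.0561), in the authors' normalized table (0.82, limma adjusted p = 0.0557) and in 7 of the 12 fits that left out 1 array (those without array 1, 2, 3, 4, 5, 8 or 10; limma adjusted p = 0.0595 to 0.0944). The difference was positive in each of these fits and ran from 1.47 to 2.03 over the fits that left out 1 array. Adjusted for the lymphocyte level of each array it was 1.84 (limma adjusted p = 0.243). Rps4x, the expressed protein-coding copy, differed in the other direction without passing: its log2 level was 13.97 ± 0.26 and 13.56 ± 0.65 (SD, n = 6 each).

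**Figure D2:**
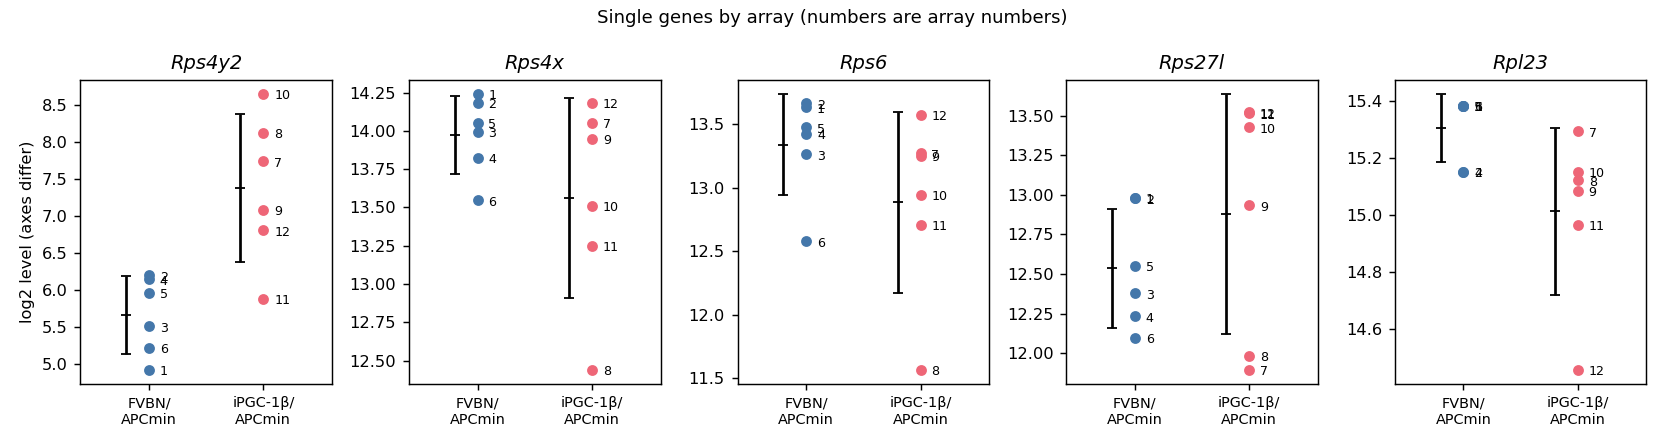
Log2 level on each array for Rps4y2, Rps4x, Rps6, Rps27l and Rpl23 (points, numbered by array, blue FVBN/APCmin and red iPGC-1β/APCmin), with the group mean and SD (bars, n = 6). For Rps4y2, all red points except array 11 lie above the blue ones, array 8 is lowest for Rps4x and Rps6, and array 12 is lowest for Rpl23.

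Some paralogs of ribosomal protein genes can replace or accompany their counterpart in some tissues. Of the paralogs measured, only Rps4y2, which RefSeq lists as a transcribed pseudogene, passed the test. Rps27l, a paralog of Rps27 that is induced by p53, ran from 12.10 over a median of 12.47 to 12.98 (log2) in FVBN/APCmin and from 11.89 over 13.18 to 13.52 in iPGC-1β/APCmin, with a difference of 0.34 (SE 0.31, limma adjusted p = 0.550). Arrays 7 and 8 were below all FVBN/APCmin arrays, and arrays 10, 11 and 12 above them. Rpl22l1, the paralog of the RNA-binding protein gene Rpl22, was at 6.91 ± 0.35 and 6.90 ± 1.02, and Rpl36al at 12.57 ± 0.31 and 12.56 ± 0.78 (SD, n = 6 each). Rpl7l1, a paralog of Rpl7, differed by -0.24 (SE 0.18).

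Whether a paralog and its counterpart moved unequally was tested for 2 pairs. Rps4y2 and Rps4x, both kept as well, were not tested as a pair, and their differences stand above as a description. The level of Rpl22l1 minus that of Rpl22 differed between the genotypes by 0.05 (95% interval -0.91 to 1.02; exact two-sided permutation p = 0.896 over 924 relabelings, 0.896 adjusted over the 2 pairs). That of Rpl36al minus Rpl36a differed by 0.08 (95% interval -0.14 to 0.31; exact permutation p = 0.396, 0.792 adjusted). Neither passed, and the interval for Rpl22l1 is the wider one. The paralogs Rpl3l and Rpl39l, genes of muscle and testis, were detected on 0 arrays.

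Single arrays differed widely in these genes. The range of a member over the 12 arrays had a median of 2.10 on the log2 scale, against 1.46 over all genes, and the SD within groups a median of 0.60 against 0.42. The same arrays were low or high for most members. Array 8 (iPGC-1β/APCmin) held the lowest value of 49 of the 57 genes (86.0%), where 13.5% of all genes were lowest on it. Array 12, of the same genotype, held the highest value of 34 (59.6%), against 13.3% of all genes. In FVBN/APCmin, array 2 held the highest value of 11 members.

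**Figure D3:**
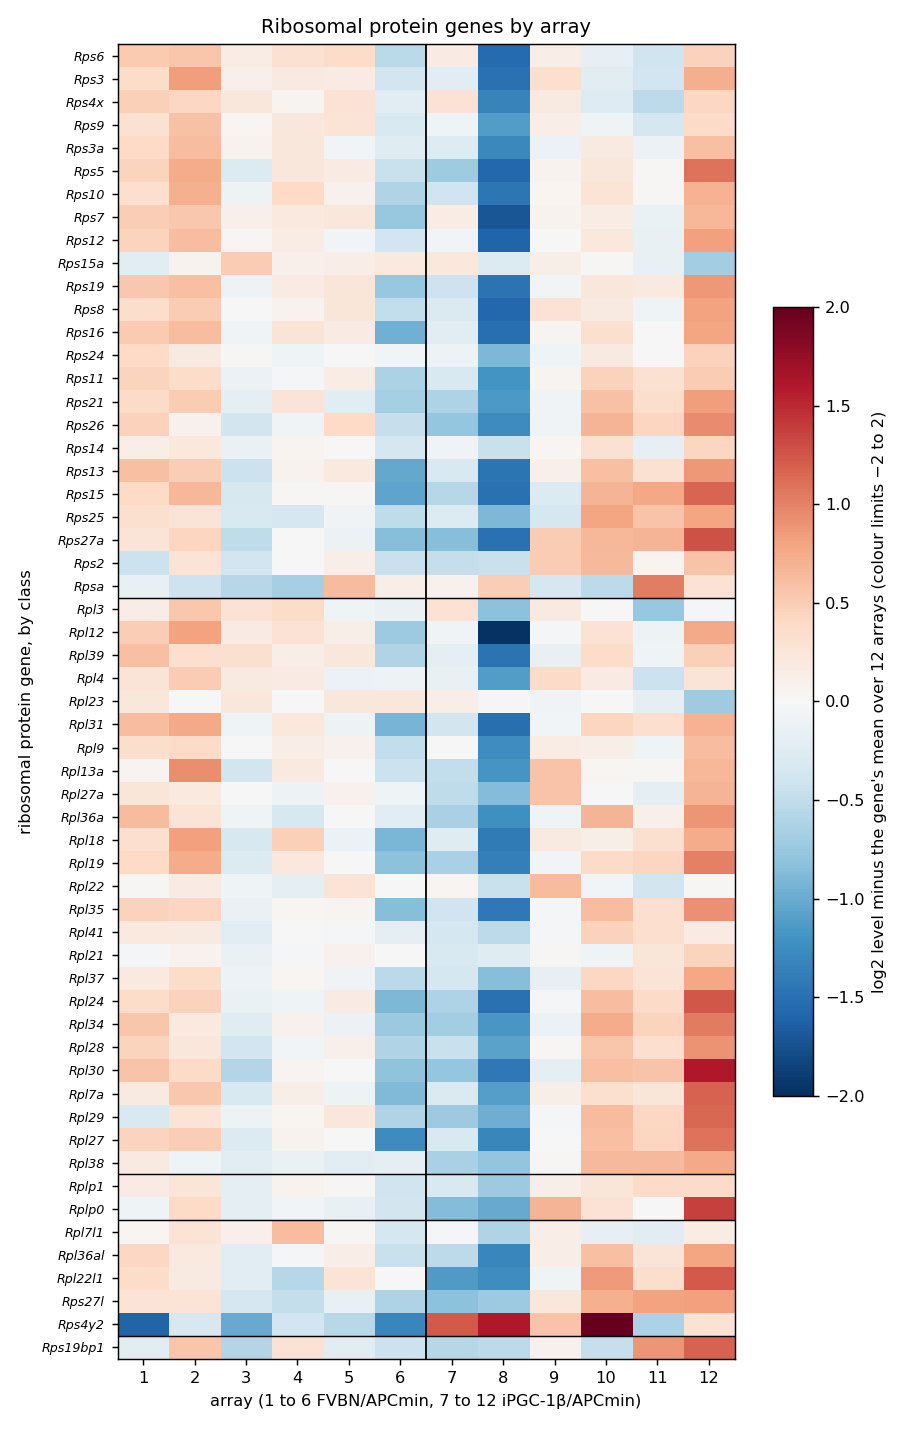
Log2 level of each of the 57 genes (rows, grouped by class and ordered by genotype difference) on each of the 12 arrays (columns), as the difference from the mean of the gene; red is above and blue below the mean. Array 8 is low and array 12 high for most rows on the same side of the line between the genotypes. Rps4y2 (second row from the bottom) is below its mean on the FVBN/APCmin arrays and on array 11, and above it on the others.

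The mean of the 57 genes, each centred on its own mean over the arrays, was 0.26, 0.39, -0.14, 0.05, 0.06 and -0.50 on arrays 1 to 6. On arrays 7 to 12 it was -0.31, -1.05, 0.09, 0.33, 0.14 and 0.69. The lowest and the highest array thus had the same genotype, and the group means were 0.02 ± 0.31 and -0.02 ± 0.60 (SD, n = 6 each). Before any normalization, the median raw intensity of the member probes was 2778.5 on array 8 and 18977 on array 12, with 3202.7 on array 6 as the next lowest and 12548.7 on array 2 as the next highest. The sign of the median difference depended on single arrays. It was positive without array 8 (0.14, with 43 of 57 members higher), array 7 (0.04), array 2 (0.03) or array 1 (0.02). It stayed negative without any of the other arrays, down to -0.19 without array 12, where 50 members were lower. Fewer cells with abundant ribosomal mRNA, less such mRNA per cell and technical differences between arrays cannot be told apart here.

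**Figure D4:**
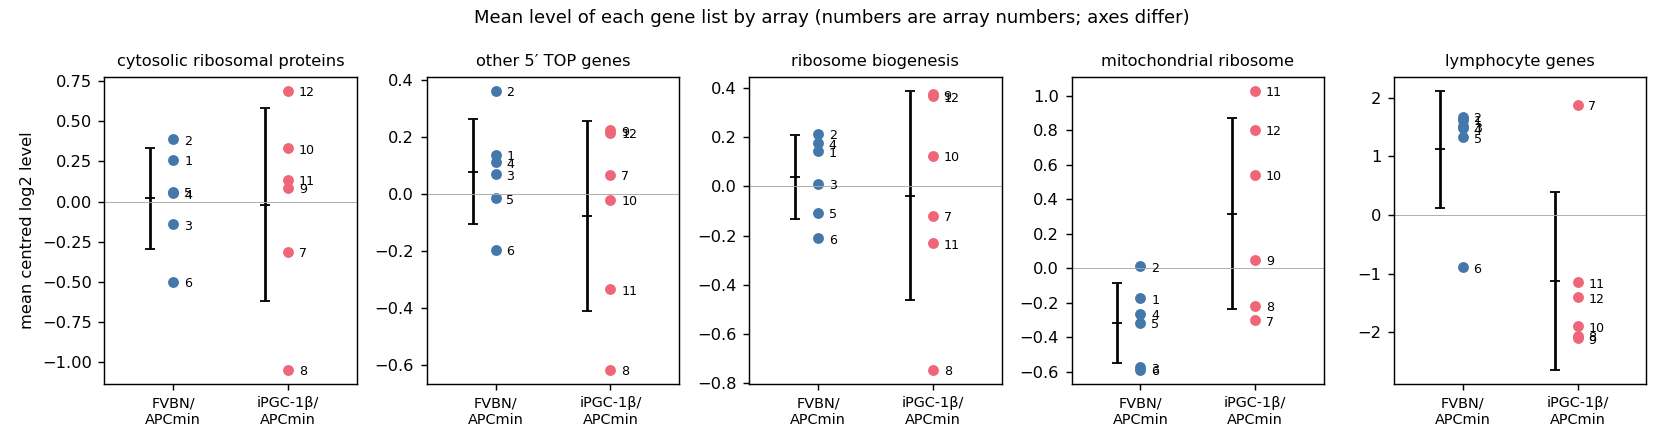
Mean centred log2 level on each array (points, numbered by array) of cytosolic ribosomal protein genes, other TOP genes, ribosome biogenesis genes, mitochondrial ribosomal protein genes and lymphocyte genes, with group mean and SD (bars, n = 6); axes differ between panels. Array 8 is lowest in the first 3 panels, whereas the lymphocyte panel separates arrays 6 and 7 from their groups.

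As a description over 12 arrays that share their normalization, the median Pearson correlation between pairs of members was 0.79 (1596 pairs), 0.75 within FVBN/APCmin and 0.85 within iPGC-1β/APCmin. Each gene was also set against the mean of the other members. This correlation was above 0.9 for 31 genes, with Rpl35 (0.99), Rpl24 (0.98) and Rps19 (0.98), the gene mutated in many patients with Diamond-Blackfan anaemia, at the top. It was below 0.5 for 6 genes: Rpl23 (-0.46), Rps15a (-0.31), Rpsa (-0.24), Rps4y2 (-0.21), Rpl22 (0.37) and Rpl3 (0.44). Of the genes with a tract found near the start, 19 of 22 were lowest on array 8, and of those without, 21 of 24. Annotated starts may be off by some bases, so genes without a match can still have TOP mRNAs. This split therefore cannot show whether the tract matters.

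Rpl23 shows how the choice of probe enters. Its brightest probe, the one used, ranked between the second and the 44th brightest of all probes on each array, and its log2 level spanned 0.93. After normalization it was lowest on array 12, whereas its raw intensity was lowest on array 8 (30494.1, against 32578.9 on array 12). The other kept probes of Rpl23, with mean levels of 13.99 and 9.31, were lowest on array 8 and highest on array 12, as most members were, and correlated at -0.26 and -0.44 with the brightest one. All 3 probes had small log2 differences between the genotypes (-0.29, -0.08 and -0.08), and none passed. Over the 12 genes with more than 1 kept probe, 10 of the 13 further probes had a difference of the same sign as the brightest probe, and none of the 13 passed over all kept probes, where 3.1% passed. The widest disagreement was in Rpl29, with log2 differences of 0.16 and 1.01 (SE 0.65 for the latter).

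Other genes with TOP mRNAs, such as elongation factors and subunits of initiation factor 3, were not called either. Of these 19 genes, 0 passed the limma test, where 3.45% of all genes did. By sign 14 were lower, where 5642 of all 10967 genes were, with a median log2 difference of -0.09. Those with the smallest p were Eif3f (-0.54), Eef1g (-0.43) and Eef2 (-0.55), which encode an initiation factor 3 subunit and elongation factors. Their mean level was lowest on array 8 too (-0.62), and 10 of the 19 had their lowest value there. Of 27 further initiation factor genes 0 passed, the smallest p being those of Eif2b4 (0.55), Eif6 (-0.37), which keeps the subunits apart, and Eif4ebp2 (-0.74), an inhibitor of the cap-binding factor eIF4E.

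Genes of ribosome biogenesis transcribe and process ribosomal RNA and assemble the subunits in the nucleolus. Of 51 such genes 1 was past the threshold, where 3.45% of all genes were. Riok1, a kinase of late 40S maturation, fell by 0.76 (SE 0.17, limma adjusted p = 0.0300), from 9.18 ± 0.27 to 8.42 ± 0.22 (SD, n = 6 each). By sign 34 of the 51 were lower, where 5642 of all 10967 genes were, with a median log2 difference of -0.09. On array 8, 35 of the 51 had their lowest value, where 13.5% of all genes did. The mitochondrial ribosome, which translates mRNAs of mitochondrial DNA, had other counts: 68 of 69 genes were higher by sign, where 5325 of all 10967 were, and 4 of the 69 were past the threshold and higher, where 2.22% of all genes were, with a median log2 difference of 0.60, and 5 of the 69 were lowest on array 8. Its difference from the cytosolic ribosome was not tested.

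Markers of other cells were measured beside these genes, and their part in the ribosomal protein levels was not tested. All 14 T and NK cell genes and all 10 B and plasma cell genes measured were lower by sign in iPGC-1β/APCmin. Of these, 4 and 0 were past the limma threshold, where 1.23% of all genes passed and were lower, and 7 and 4 were detected on every array. The joint centred log2 level of these lymphocyte genes ranged over -0.89 to 1.67 among the controls and over -2.10 to 1.88 among the others. On arrays 8 and 12, the lowest and highest in ribosomal protein mRNA, that level was -2.06 and -1.40. None of the other marker genes passed: by sign 4 of 8 myeloid, 6 of 11 smooth muscle and fibroblast, 6 of 8 endothelial, 3 of 3 red blood cell and 2 of 10 intestinal epithelium genes were higher. The intestinal epithelium level was 0.03 on array 8 and -0.23 on array 12, and the smooth muscle and fibroblast level 0.65 and 0.38. In the fit adjusted for lymphocyte level, 0 members passed the limma test, 33 of 57 were higher by sign and the median log2 difference was 0.05; over all genes 7 passed in that fit.

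Of the 64 genes found by name, 7 were not tested because no probe was detected on enough arrays: Rpl6, Rpl14, Rpl17, Rplp2, Rps23, Rpl3l and Rpl39l. Their raw intensity was at most 167 on any array. For further ribosomal protein genes, such as Rpl5, Rpl11 and Rps20, the name rule found no probe, so they were not analysed here. The same holds for Rpl7 and Rps27, the counterparts of Rpl7l1 and Rps27l.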

How the data were processed

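Average signal intensity per probe, not normalized, was deposited with a detection p-value per probe and array, per the file headers; GenomeStudio, with no version, is named in the submitters' processing notes. The authors' normalized table holds linear intensity, quantile-normalized as read from its values. From the raw values, limma 3.58.1 (R 4.3.3) computed neqc levels (normexp background, its control mean and SD inferred from detection p-values, offset 16, quantile normalization, log2), then the probe with the highest mean per symbol. All 10967 genes were fitted together (lmFit, eBayes with trend), with Benjamini-Hochberg adjustment over all of them and a threshold of 0.05. A fit of all 14827 kept probes was set beside it. The limma fit was tested on simulated data with genes drawn independently of each other, which does not cover shifts shared by many genes on an array.

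Members and lists were chosen with earlier results of these data known. Named were members past the threshold, the 8 largest differences each way, paralogs, stalk proteins, the 3 brightest and 3 dimmest, and in each translation list genes past the threshold or the 3 with the smallest p; Rpl24, Rpl29, Rpl35, Rps15a, Rps19 and Rpl22 were named after their values were seen. For the cell type lists counts are given. Symbols were matched to RefSeq (all 57 found), start windows by current symbol. Probe sequences were not used here, so binding to near-identical copies or processed pseudogenes could not be separated. The number of arrays limits the precision. Alternatives were other background, scaling, filter, probe and variance settings, the authors' table, a lymphocyte covariate and left-out arrays.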

Additional observations from a re-analysis of the deposited data

Results flagged for a closer look

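In 50 groups of 6 arrays (the named members and the mean member level, in each genotype), 4 held an array whose gap to its nearest neighbour took an unusually large share of the whole range; chance gives about 1 in 20. Array 6 was lowest in FVBN/APCmin for Rps6, at 12.58 with 13.27 as the next value (share of the range 0.632). Array 8 was lowest in iPGC-1β/APCmin for Rpl12, at 11.13 with 13.00 next (0.685), and for Rpl39, at 11.91 with 13.20 next (0.664). Array 1 was highest in FVBN/APCmin for Rpl38, at 14.19 with 13.94 next (0.656).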

How the results depend on the processing

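The single call among the 57 genes, Rps4y2, kept its direction under every setting run and kept its call in 12 of 24. No member passed without background correction (Rps4y2 at 0.81), in the authors' normalized table (0.82), with no detection filter (1.73, over more genes tested), with the lymphocyte covariate (1.84) or without arrays 8 and 12 together (1.68, chosen after seeing the data); the counts were 0 in each, and the first pair of settings also gave 0 called probes. Leaving out 1 array gave 0 to 1 called genes or probes and a Rps4y2 difference of 1.47 to 2.03. The cause of these losses was not tested. The median member difference ran from -0.19 to 0.14 and changed sign between settings. The pooled SD of the mean member level per array was 0.48, which describes single arrays and is no yardstick for a difference between groups. Neither paralog pair tested passed with the other background and scaling settings or in the authors' table. The same held with 1 array left out and without arrays 6 and 7. The pairs were not recomputed under the remaining settings. Against 378 genes called in all, the count was 7 with the lymphocyte covariate, 200 with no filter, 2403 with array quality weights, 2184 without arrays 6 and 7 and 129 to 1821 with 1 array left out. No paired analysis was possible because the groups share no replicate numbers in the sample titles. A slide block was not run, since no slide is given. Dim probes (Rpsa, Rps4y2, Rpl21) and probes near the top of the scale (Rpl23) limit what can be read from those genes.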

Other observations

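The genes next to Rps4y2 in the RefSeq order of chromosome 6 were compared with it after its values were seen. Of the 13 nearest genes tested, 10 before and 3 after it, 0 passed the limma threshold, and their log2 differences lay between -0.36 and 0.88; the smallest limma adjusted p was 0.0513, that of Mrps35, which encodes a mitochondrial ribosomal protein.

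Bop1, which encodes a nucleolar factor of 60S maturation, was chosen after its values were seen. Its log2 level was 9.67 ± 0.43 among the controls and 9.00 ± 0.31 among tumours labelled iPGC-1β/APCmin (SD, n = 6 each). The groups did not overlap, which held for 2.82% of all genes, and Bop1 did not pass the test (limma adjusted p = 0.0897).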
